A study of Mus musculus with 6 samples.

Results

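The genes described here are 9 scavenger receptors of sinusoidal vessels and macrophages: Gpr182, Stab1, Stab2, Lyve1, Marco, Msr1, Cd163, Mrc1 and Timd4. They were picked by name from 20972 gene symbols on the array with the contrast between mutants and controls in view, and every probe whose RefSeq accession belongs to a listed gene was taken. That gave 10 probes, with 2 for Msr1 and 1 for each other gene. Since the choice used this contrast, mutant minus control differences of these genes are given as a description with an error and carry no p-value.

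RNA came from tibial cartilage of C57BL/6 mice and was hybridised to Agilent 1-colour arrays, 1 array per mouse. The mutant group held 3 mice labelled ADAM10 flox/flox-Col2a1-Cre, in which Cre recombinase under the promoter of the type II collagen gene, active in the chondrocyte lineage, acts on loxP-flanked alleles of the membrane protease gene Adam10. The control group held 3 mice labelled only as control, so whether they carried floxed alleles or Cre is not given in the sources used here, nor are ages or sexes. Values are log2 processed signals relative to the 75th percentile of the array, each group has n = 3, and levels of different probes cannot be compared with each other.

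Scavenger receptors bind altered proteins, lipids, glycans and dying cells and carry them into the cell for breakdown. In sinusoids, the wide leaky vessels of liver, spleen and marrow, the endothelium clears hyaluronan and other waste from blood through the stabilins, while resident macrophages use class A receptors, the haemoglobin receptor Cd163, the mannose receptor Mrc1 and the phosphatidylserine receptor Timd4. Growth cartilage is largely free of vessels, and vessels and marrow lie at its border with bone. In bulk RNA, fewer cells of a type and less RNA per cell cannot be told apart.

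Of the 9 genes, 7 were measured above background and 2 were not. All 7 had a lower mean in mutants than in controls. For Gpr182, Stab2 and Marco, all mutants lay below all controls, and group means were 2.84-fold, 2.34-fold and 2.09-fold lower in mutants. Stab1, Mrc1 and Msr1 were low on the array of mutant 2 and within or near the control range on mutants 1 and 3. Lyve1 varied as much among controls as among mutants.

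Promoter sequence is shown for a receptor pair whose groups did not overlap, Marco and Stab2, and for a pair low on mutant 2 alone, Stab1 and Mrc1, so that members with like and unlike patterns can be read side by side. The RefSeq promoter table (build GRCm38.p6) held an entry for 6 of the 9 genes. Each sequence below is the 250 bases before the annotated start, 5′ to 3′ on the strand of the gene. Capitals mark any match, on either strand, to the PU box core GAGGAA bound by Spi1 and Spic, the RBPJ core TGGGAA used in Notch signalling, the MAF-binding sequence TGCTGA or the GATA site AGATAA.
Marco, chr1:120505025-120505274, minus strand: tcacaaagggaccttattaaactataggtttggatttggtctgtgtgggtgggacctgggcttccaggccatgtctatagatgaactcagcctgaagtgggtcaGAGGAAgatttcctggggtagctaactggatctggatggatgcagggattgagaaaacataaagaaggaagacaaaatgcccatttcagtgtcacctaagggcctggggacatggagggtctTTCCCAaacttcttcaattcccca
Stab2, chr10:87007943-87008192, minus strand: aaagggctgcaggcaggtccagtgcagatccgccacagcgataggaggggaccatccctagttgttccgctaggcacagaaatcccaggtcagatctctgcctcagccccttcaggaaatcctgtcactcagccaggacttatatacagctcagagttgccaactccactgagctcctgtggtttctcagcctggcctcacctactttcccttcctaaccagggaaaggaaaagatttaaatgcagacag
Stab1, chr14:31168642-31168891, minus strand: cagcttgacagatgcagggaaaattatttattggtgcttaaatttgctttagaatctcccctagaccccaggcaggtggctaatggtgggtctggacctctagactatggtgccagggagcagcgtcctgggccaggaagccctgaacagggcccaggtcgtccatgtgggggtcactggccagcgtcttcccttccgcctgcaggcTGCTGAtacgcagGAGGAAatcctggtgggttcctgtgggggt
Mrc1, chr2:14229164-14229413, plus strand: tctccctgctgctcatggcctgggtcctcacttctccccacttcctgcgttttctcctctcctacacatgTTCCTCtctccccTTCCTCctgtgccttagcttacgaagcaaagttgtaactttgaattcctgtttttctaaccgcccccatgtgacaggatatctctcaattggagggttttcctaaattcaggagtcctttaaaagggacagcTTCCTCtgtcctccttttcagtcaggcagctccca
The Marco window held a PU box core 146 to 141 bases before the start and an RBPJ core, on the opposite strand, 24 to 19 bases before it. Stab2 held none of the 4 motifs. Stab1 held a PU box core at 30 to 25 bases and a MAF sequence at 43 to 38 bases. Mrc1 held 3 PU box cores, all on the opposite strand, the nearest at 35 to 30 bases. Among all 32851 windows of the table, 23.3% hold the PU box core, 21.6% the RBPJ core, 16.1% the MAF sequence and 9.99% the GATA site. A match describes letters in the window and is no evidence of binding.

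All 6 arrays lay on 1 slide. Mutant 1 and the 3 controls were in its first row and mutants 2 and 3 in its second, so row and group were partly confounded. Differences on the first slide row thus rest on 1 mutant mouse. The share of spots well above background was 62.4% to 65.4%, 0 spots were saturated, and replicate spots of an array differed by a median of 4.39% to 4.95%. Adam10, measured by 1 probe, had log2 signals of 0.15, -1.70 and 0.31 on mutants 1 to 3, against 1.61, 1.58 and 1.21 on controls 1 to 3. The 2 groups did not overlap, with a difference of -1.88 (SE 0.53) and an adjusted p of 0.987 by limma, and a difference of -1.24 (SE 0.17) without mutant 2. No source used here names the floxed exon, or the probe's place relative to it. Col2a1, the defining collagen of cartilage, averaged 9.97 ± 0.12 in mutants and 10.03 ± 0.07 in controls (SD, n = 3 each). All 10 osteoclast genes had a difference below 0 (median -1.22, or -0.56 without mutant 2) and 11 of 12 chondrocyte genes above 0 (median 0.30, or 0.14), with 0 genes of either list past the adjusted threshold. Mutant 2 stood apart from the other arrays, with the lowest scores for endothelial (-1.12), macrophage (-1.44) and osteoclast genes (-1.91) and the highest for chondrocyte genes (0.39). A score averages a list's genes after each has been centred on its own mean across the 6 arrays. For receptors and lists, values without mutant 2 are given beside those from all arrays, and for other genes where the difference moved by over 1.5 times or the call changed. Signal of the Y-linked gene Ddx3y exceeded that of Xist on mutants 1 and 2 and on controls 2 and 3, and not on mutant 3 and control 1. The former are called arrays with Y-linked signal below. The split was not clean on mutants 1 and 3. Ddx3y read -4.57 on mutant 3, against -7.34 on control 1. Xist read -3.66 on mutant 1, against -7.32 to -7.23 on the other arrays with Y-linked signal. The cause was not tested.

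Across all 25494 tested features, limma called 0% lower and 0% higher after Benjamini-Hochberg adjustment (threshold 0.05), and none of the 7 receptors was among them. At an unadjusted p below 0.05 there were 3 of the 7 receptors on the lower side, where 1.89% of all features were lower and 1.55% higher. The same 3 were also at least 2-fold lower, as were 0.624% of all features, and 0.110% were at least 2-fold higher. Groups did not overlap, with mutants lower, for 3 of 7 receptors and for 3.75% of all features, and 5.19% of all features were separated with mutants higher. The difference was below 0 for 7 of 7 receptors and for 40.0% of all features. The median difference was -0.92 over the 7 receptors and 0.04 over all features. Without mutant 2, the receptor median was -0.12, with 5 receptors below 0 and 2 above. Msr1 counts among those above at 0.005 by its first probe, while its second probe stood at -0.52. Nothing is read from these counts, since the contrast guided the choice of genes and the 7 are those that passed a filter on dim probes.

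**Figure D1:**
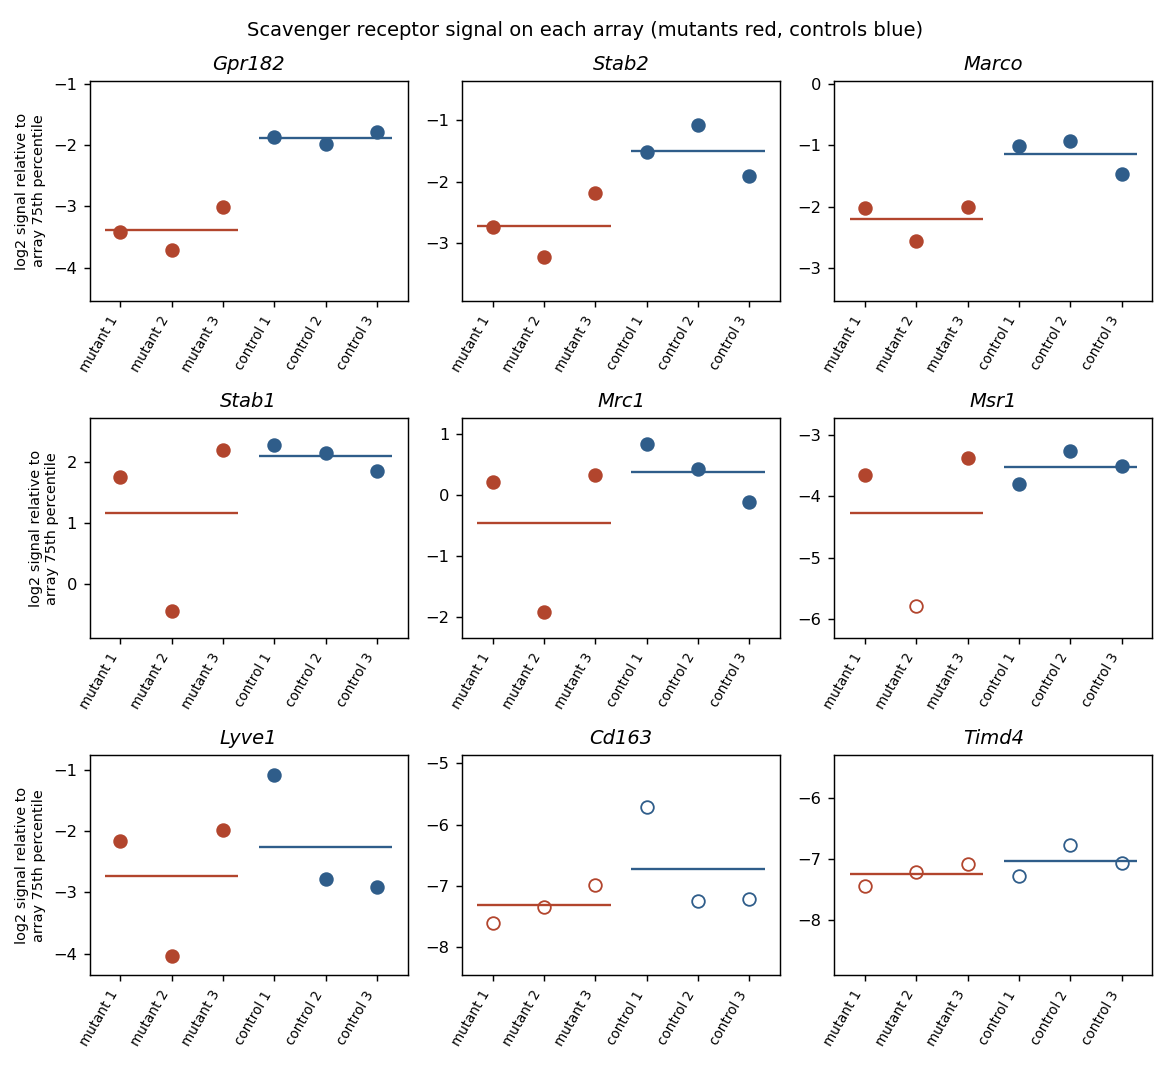
Log2 signal of each receptor relative to the array's 75th percentile (y axis, 3.6 log2 units in every panel) on each array (x axis), with mutants red, controls blue, lines at group means and open circles where the probe was not well above background. Gpr182, Stab2 and Marco separate the groups, Stab1, Mrc1 and Msr1 are low on mutant 2, and Cd163 and Timd4 are open on every array.

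The receptors of sinusoidal and lymphatic endothelium come first. Gpr182 is a heptahelical receptor that takes up chemokines without the usual G protein signalling. Its log2 signal was -3.42, -3.72 and -3.00 on mutants 1 to 3, against -1.87, -1.98 and -1.78 on controls 1 to 3. Every mutant lay more than 1 log2 unit below the lowest control, and the controls lay close together. The group means were -3.38 ± 0.36 in mutants and -1.88 ± 0.10 in controls (SD, n = 3 each), a difference of -1.51 (SE 0.20). In processed intensity, the 3 mutants read 58.8, 45.4 and 63.7 units and the 3 controls 162.3, 141.0 and 148.6 units. All 6 readings were well above background, with a spot error from Feature Extraction between 10.3% and 13.6%. The difference stood at -1.34 (SE 0.17) without mutant 2, -1.55 on the first slide row alone (mutant 1 and the 3 controls) and -1.69 where Ddx3y exceeded Xist. With normexp background correction (offset 50) it was -0.82, less than the main value by over 1.5 times.

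Stab2 is the endocytic hyaluronan receptor of sinusoidal endothelium. It read -2.74, -3.23 and -2.19 on mutants 1 to 3, against -1.51, -1.08 and -1.91 on controls 1 to 3. The groups did not overlap, but mutant 3 and control 3 lay closer together than either did to its nearest group mate. The difference was -1.22 (SE 0.32), and -0.97 (SE 0.30) without mutant 2. On the first slide row it was -1.24, among arrays carrying Y-linked signal -1.50, and with normexp -0.76.

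Stab1, a related stabilin found on sinusoidal endothelium and on macrophages, clears the matrix protein Sparc and modified lipoproteins. It had log2 signals of 1.74, -0.44 and 2.19 on mutants 1 to 3, against 2.26, 2.14 and 1.85 on controls 1 to 3. Mutant 3 lay above control 2, mutant 1 slightly below control 3, and mutant 2 far below all others. Relative to the control mean, Stab1 was 5.77-fold lower on mutant 2 and 1.27-fold lower on mutant 1, and on mutant 3 it was higher by 0.10 on the log2 scale. The difference of -0.92 (SE 0.66) became -0.12 (SE 0.20) without mutant 2.

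Lyve1 is a hyaluronan receptor of lymphatic vessels, also found on sinusoids and some tissue macrophages. Its log2 signal was -2.15, -4.04 and -1.99 on mutants 1 to 3, against -1.08, -2.77 and -2.91 on controls 1 to 3. Control 1 was the highest array and mutant 2 the lowest, and mutants 1 and 3 lay between control 1 and the other two controls. The difference was -0.47 (SE 0.71). It turned to 0.18 without mutant 2, to 0.12 without control 1 and to 0.10 on the first slide row, and it was -0.25 on the arrays with Y-linked signal.

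Lyve1 had the same highest and lowest arrays as skeletal muscle genes, and as lymphatic genes. The score of 8 muscle fibre genes was 1.51, -2.64 and 0.50 on mutants 1 to 3, against 2.22, -0.80 and -0.80 on controls 1 to 3. Control 1 was again the highest array and mutant 2 again the lowest, and mutants 1 and 3 again lay above controls 2 and 3. The 3 symbols most like Lyve1 over the 6 arrays were Cavin2 (Pearson r 0.996), which encodes a caveolar coat protein of muscle and endothelium, Adamts8 (0.995) and P2rx5 (0.993). Of 9 lymphatic genes 6 were measured, 5 of them below 0, and 0 had an unadjusted p below 0.05. Their median was -0.55, and -0.25 without mutant 2. The lymphatic score was 0.07, -0.88 and -0.01 on mutants 1 to 3, against 0.69, 0.33 and -0.20 on controls 1 to 3. It too was highest on control 1 and lowest on mutant 2. Among the receptors, Lyve1 had a Pearson r of 0.887 with Mrc1 and 0.809 with Stab1. Prox1, the master regulator of lymphatic endothelium, and Reln were not well above background on any array. The muscle list's median difference was -0.38, and 0.80 without mutant 2, and Lyve1 changed sign likewise. The part of muscle or of lymphatic vessels in the Lyve1 values was not tested.

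Among macrophage receptors, Marco is a class A scavenger receptor that binds bacteria and particles, known from the marginal zone of the spleen and from lung macrophages. It read -2.02, -2.56 and -2.01 on mutants 1 to 3, against -1.01, -0.93 and -1.47 on controls 1 to 3. Every mutant was below every control, and mutant 2 was again the lowest. The means were -2.20 ± 0.32 in mutants and -1.14 ± 0.29 in controls (SD, n = 3 each), a difference of -1.06 (SE 0.22). Without mutant 2 it was -0.88 (SE 0.19), on the first slide row -0.89, among arrays carrying Y-linked signal -1.09 and with normexp -0.77. Marco was the only receptor of the 7 whose difference stayed within 1.5 times of its main value in all 18 alternatives run.

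Mrc1, the mannose receptor of resident macrophages and of some sinusoidal endothelium, had log2 signals of 0.21, -1.92 and 0.32 on mutants 1 to 3, against 0.83, 0.42 and -0.12 on controls 1 to 3. Mutants 1 and 3 lay inside the control range, and mutant 2 was 4.90-fold below the control mean. The difference was -0.84 (SE 0.62), and -0.11 (SE 0.29) without mutant 2.

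Msr1 is the class A receptor for modified lipoproteins and was the only gene of the set with 2 probes. The probe with the higher mean over the 6 arrays read -3.65, -5.79 and -3.37 on mutants 1 to 3, against -3.79, -3.25 and -3.50 on controls 1 to 3. On mutant 2 neither probe was well above background, so Msr1 was measured on 2 of 3 mutant arrays and on 3 of 3 control arrays. Mutants 1 and 3 lay inside the control range. The second probe read -3.79, -6.95 and -3.53 on mutants 1 to 3, against -3.60, -2.66 and -3.17 on controls 1 to 3, where mutant 1 was below all controls and mutant 3 was inside their range. The second probe was the brighter of the 2 on all 3 controls, and the order of their means rests on mutant 2. Without mutant 2, the difference was 0.005 (SE 0.20) for the first probe and -0.52 (SE 0.29) for the second. With it, the differences of -0.75 (SE 0.62) and -1.61 (SE 0.90) include a reading not well above background and are not exact.

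Cd163, which takes up haemoglobin bound to haptoglobin, and Timd4, which binds phosphatidylserine on dying cells, were not well above background on any of the 6 arrays. Cd163 read at most 4.005 intensity units on mutants, and 11.3, 3.64 and 3.42 units on controls 1 to 3, and Timd4 between 3.66 and 4.04 units on mutants and between 3.82 and 5.10 units on controls. The Cd163 reading of control 1 was the highest of these, still not well above background, and no fold is given for either gene.

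**Figure D2:**
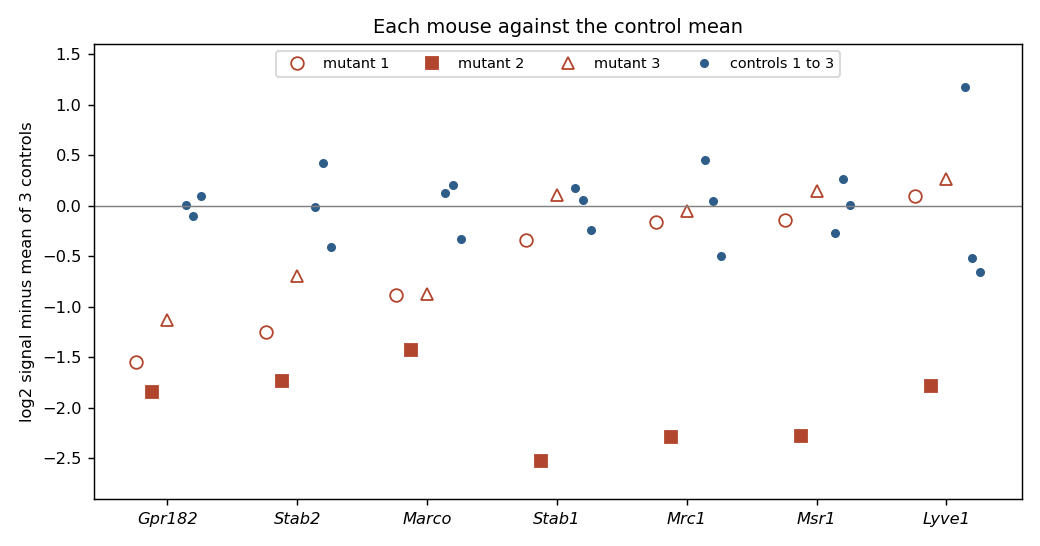
Log2 signal of each mouse minus the mean of the 3 controls (y axis) for the 7 receptors above background (x axis), with mutants as red symbols and controls as blue dots. Mutants 1 and 3 sit at -1.55 to -0.69 for Gpr182, Stab2 and Marco and at -0.34 to 0.27 for Stab1, Mrc1, Msr1 and Lyve1, while mutant 2 is at -2.53 to -1.43 for all 7. Msr1 is drawn for its first probe. Its second probe, not drawn, lay at -0.64 on mutant 1 and -0.39 on mutant 3.

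The spread among mice is given as an SD. For Stab1, Msr1, Mrc1 and Lyve1, the SD among mutants reflects the low reading of mutant 2 described above and is no separate trait. For Msr1 that reading was not well above background, so its SD is not exact. Among mutants, the SD of Stab1, Msr1, Mrc1 and Lyve1 was larger than that of 97.8% to 98.9% of all tested features, against 72.9% for Marco, 77.6% for Gpr182 and 88.2% for Stab2. Among controls, the SD of Gpr182 was larger than that of only 22.4% of features. For Lyve1 the control SD was larger than that of 97.5% of features, and for Stab1 of 57.2%. The median SD over all features was 0.20 among mutants and 0.19 among controls.

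Cell type lists were read beside the receptors. All gene lists were chosen with earlier results of these data known, and genes are named partly by the smallest p. Unadjusted p-values of list genes, here and below, are thus a description and no test of a list. Of 20 general endothelial genes, all were measured and 19 had a difference below 0, with a median of -0.64, or -0.18 without mutant 2. None passed at an adjusted p below 0.05 in either direction, and 0 at an unadjusted p below 0.05. Emcn, which encodes the sialomucin endomucin, differed by -0.86 (SE 0.37). For Cdh5, whose product joins endothelial cells, the difference was -0.94 (SE 0.43). Without mutant 2 these were -0.44 (SE 0.19) for Emcn and -0.43 (SE 0.16) for Cdh5, and 1 of the 20 genes, Cdh5, then had an unadjusted p below 0.05. The endothelial score was 0.09, -1.12 and 0.15 on mutants 1 to 3, against 0.39, 0.41 and 0.07 on controls 1 to 3, so the 2 groups overlapped. Gpr182 and Stab2 were compared with this score within each array by subtraction. Relative to it, Gpr182 was -0.89, 0.03 and -0.52 on mutants 1 to 3, against 0.37, 0.24 and 0.78 on controls 1 to 3, still with no overlap. Stab2 was -0.73, -0.01 and -0.23 on mutants, against 0.20, 0.62 and 0.14 on controls, also with no overlap. Relative to the endothelial genes, mutant 2 was thus the nearest to controls for both receptors, and mutant 1 the farthest. Stab1 and Lyve1 overlapped on this scale.

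Of 14 genes chosen for sinusoidal endothelium, 10 were measured, 6 of them below 0, and 0 passed at an adjusted p below 0.05. Lrg1 at -1.02 (SE 0.40) and Oit3 at -0.60 (SE 0.24) had an unadjusted p below 0.05 on the lower side, and 0 genes did so on the higher side. Without mutant 2 neither did, with Lrg1 at -0.77 (SE 0.43) and Oit3 at -0.40 (SE 0.22). Fcgr2b, the inhibitory Fc receptor through which sinusoids clear immune complexes, differed by -1.12 (SE 0.63), or by -0.33 (SE 0.13) without mutant 2, and its groups overlapped in neither case. It was then the 1 gene of the list with an unadjusted p below 0.05. Dnase1l3, Clec4g, Gata4 and Wnt2, which mark liver sinusoids, were not well above background on any array. The 4 measured genes above 0 were Ehd3 at 0.21, Bmp2 at 0.13, Il6st at 0.09 and Kdr at 0.06. Without mutant 2 they stood at 0.11, -0.06, 0.007 and 0.14. The median difference of the list was -0.36, and -0.16 without mutant 2.

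Macrophage genes were measured for 19 of 22 listed, with 17 below 0 and 0 past the adjusted threshold. Lyz2 (lysozyme) at -1.42 (SE 0.37) and the Fc receptor Fcgr1 at -0.99 (SE 0.38) had an unadjusted p below 0.05, and 0 genes did so on the higher side. Without mutant 2, Lyz2 stood at -1.02 (SE 0.23), still at an unadjusted p below 0.05, and Fcgr1 at -0.58 (SE 0.23), no longer so. The list score was 0.07, -1.44 and 0.08 on mutants 1 to 3, against 0.31, 0.65 and 0.33 on controls 1 to 3. Mutants were below controls, with mutants 1 and 3 close to them and mutant 2 far lower, and the median of -1.01 was -0.32 without mutant 2. Relative to this score within each array, Marco was -0.43, 0.55 and -0.43 on mutants, against 0.35, 0.09 and -0.13 on controls. Mutant 2 was the highest array on that scale and mutants 1 and 3 the lowest, so the groups overlapped. Mrc1 and Msr1 overlapped as well, with differences of 0.02 and 0.10 on that scale.

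Spic, known for its role in macrophages that recycle iron from red cells, binds the PU box. Its log2 signal was -3.99, -4.68 and -3.37 on mutants 1 to 3, against -2.48, -1.75 and -2.35 on controls 1 to 3. The difference was -1.82 (SE 0.36), or -1.48 (SE 0.30) without mutant 2, with all mutants below all controls. It led the 12 genes of iron-recycling macrophages, all 12 measured and below 0, of which 1 had an unadjusted p below 0.05 and 0 passed after adjustment. Their median was -0.33, and -0.20 without mutant 2, where 10 of 12 were below 0. Spi1 (PU.1), the master regulator of the myeloid lineage, was well above background on 2 of 3 mutant arrays. On those and the controls its difference was -0.88 (SE 0.30), again with separated groups, and the -1.68 (SE 0.68) over all arrays includes a reading of mutant 2 that was not well above background. In the list of 14 transcription factors, 12 were measured and below 0, 2 had an unadjusted p below 0.05 and 0 passed after adjustment. The median was -0.57, and -0.27 without mutant 2, where 10 of 12 were below 0.

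**Figure D3:**
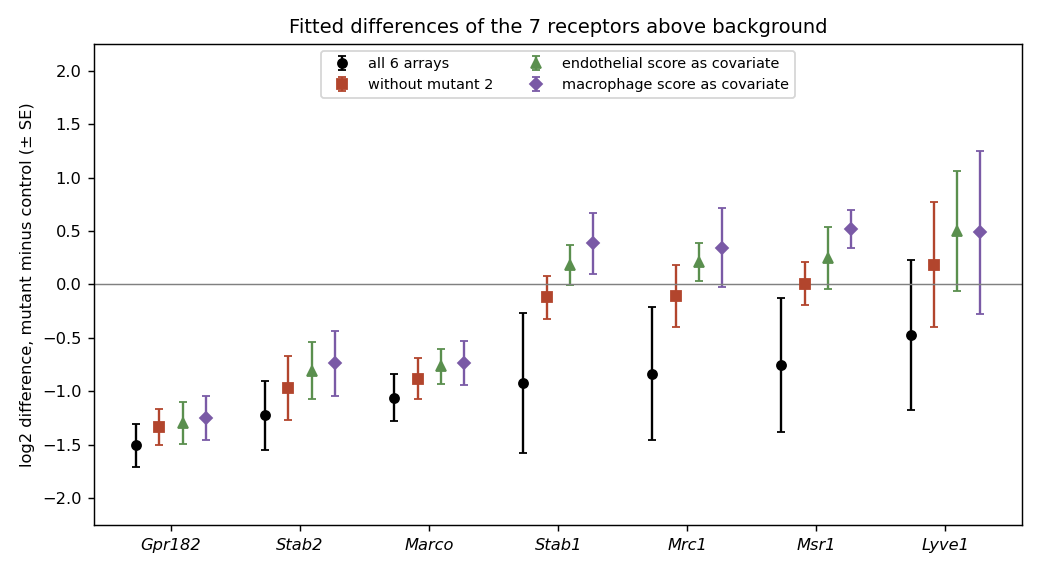
Mutant minus control difference on the log2 scale (y axis) with its SE for the 7 receptors above background (x axis), from all 6 arrays, without mutant 2, and with the endothelial or the macrophage score as a covariate. Gpr182, Stab2 and Marco stay between -1.51 and -0.73 in these 4 fits, while Stab1, Mrc1 and Msr1 lie between -0.92 and 0.52. Msr1 is drawn for the first of its 2 probes, and fits with mutant 2 include a reading not well above background.

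When the endothelial score was a covariate in the fit, the difference was -1.30 (SE 0.19) for Gpr182, -0.81 (SE 0.27) for Stab2 and -0.76 (SE 0.16) for Marco. With the macrophage score it was -1.25 (SE 0.21), -0.74 (SE 0.30) and -0.73 (SE 0.21). The other receptors turned positive in both fits. With the macrophage score, Stab1 stood at 0.38 (SE 0.28), Mrc1 at 0.35 (SE 0.37), Msr1 at 0.52 (SE 0.18) and Lyve1 at 0.49 (SE 0.76). With the endothelial score the same 4 stood at 0.18, 0.21, 0.25 and 0.50. The Msr1 values come from the first of its 2 probes. They include the mutant 2 reading, which was not well above background, and are not exact. Both scores were lowest on mutant 2, and with 6 arrays a covariate leaves few degrees of freedom.

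The ligands of these receptors were examined from lists chosen for them. Gpr182 binds the chemokines Cxcl10, Cxcl12 and Cxcl13. Cxcl12, which holds blood-forming cells in marrow, had log2 signals of 2.62, 0.92 and 2.64 on mutants 1 to 3, against 3.66, 4.80 and 3.97 on controls 1 to 3. Cxcl12 differed by -2.08 (SE 0.53) and Cxcl10 by -1.69 (SE 0.46), each with all mutants below all controls and an unadjusted p below 0.05. Without mutant 2 the differences were -1.52 (SE 0.35) for Cxcl12 and -1.17 (SE 0.25) for Cxcl10, both still at an unadjusted p below 0.05. Cxcl10 was well above background on 2 of 3 mutant arrays, so its value over all arrays is not exact, and Cxcl13 on none of the 6 arrays. Cxcl12 and Cxcl10 were 2 of 12 measured genes in a list of ligands and partners, of which 0 passed after adjustment and 0 were higher at an unadjusted p below 0.05. The list median was -0.11, and -0.07 without mutant 2. Atypical chemokine receptor Ackr4, with a comparable uptake role, differed by -0.88 (SE 0.50), or by -0.32 (SE 0.29) without mutant 2. The other atypical receptors of the list, Ackr1, Ackr2 and Ackr3, differed by -0.14, -0.35 and 0.12. Without mutant 2 these stood at 0.44, -0.13 and -0.03.

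For hyaluronan, the ligand of Stab2 and Lyve1, 12 of 14 pathway genes were measured, and 0 had an unadjusted p below 0.05 in either direction. Hapln1, the cartilage link protein, differed by 0.30 (SE 0.24), the receptor Cd44 by -0.43 (SE 0.45) and the depolymerising protein Cemip by -0.40 (SE 0.32). Without mutant 2, Cd44 turned to 0.08 (SE 0.23) and Cemip stood at -0.20 (SE 0.33). The list median was -0.04, and -0.002 without mutant 2. For the haemoglobin and haptoglobin taken up by Cd163, a list of 11 genes held haptoglobin, globins, hemopexin and genes for haem breakdown and iron storage. All 11 were below 0, down to sizes near 0 such as Hpx (hemopexin) at -0.05, with a median of -0.36 and, without mutant 2, of -0.42 and 10 of 11 below 0. The lowest were Hp (haptoglobin) at -1.40 (SE 0.51) and the globin Hbb-b2 at -1.31 (SE 0.47), whose probe may also detect its near-identical neighbour Hbb-b1. Those 2 had an unadjusted p below 0.05 on the lower side, and 0 genes passed after adjustment. Without mutant 2 neither did, with Hp at -0.90 (SE 0.39) and Hbb-b2 at -1.11 (SE 0.54). Globin signal came with blood and marrow scores, which were highest on controls 1 and 2 and low on control 3. The erythroid score, which itself includes the globins Hbb-b1 and Hba-a1, was -0.99, -0.46 and -0.06 on mutants 1 to 3, against 1.79, 0.92 and -1.20 on controls 1 to 3. Its part in the Hp and globin values was not tested.

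In the list for clearance of dying cells, the pathway of Timd4, 13 of 14 genes were measured and 8 were below 0. The integrin subunit Itgb3, also abundant in osteoclasts, differed by -0.94 (SE 0.38), or by -0.49 (SE 0.17) without mutant 2. It was the only 1 of the 13 with an unadjusted p below 0.05, and 0 genes passed after adjustment. The list median was -0.12, and -0.02 without mutant 2. Of 24 other scavenger and pattern receptors, 18 were measured, 8 were below 0 and 10 above, with a median of 0.04 (0.01 without mutant 2), and 0 passed after adjustment. The lectin Cd209f, a macrophage receptor, differed by -1.49 (SE 0.48) and was the only 1 with an unadjusted p below 0.05. Without mutant 2 it stood at -1.10 (SE 0.45) and no gene of the list had one. Scarb1, the receptor for high-density lipoprotein, differed by 0.41 (SE 0.22) and Scara5, a ferritin receptor, by 0.32 (SE 0.18), or by 0.19 (SE 0.17) without mutant 2. Several genes sit in more than 1 list, among them Vcam1, Flt4, Spic, Nr1h3, Itgb3, Hbb-b1 and Hba-a1.

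Neutrophil and B cell scores were high on controls 1 and 2 alone. The neutrophil score was -1.37, -0.56 and -0.23 on mutants 1 to 3, against 1.86, 0.99 and -0.68 on controls 1 to 3. The B cell score was -0.82, -0.72 and -0.08 on mutants, against 1.20, 1.19 and -0.76 on controls. Gpr182 had its highest reading on control 3, where both scores were low, though its controls lay close together at -1.87, -1.98 and -1.78. Stab2, Marco, Stab1, Mrc1 and Lyve1 had their lowest control reading on control 3. Both Msr1 probes had theirs on control 1. The part of marrow content in the receptor values was not tested.

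**Figure D4:**
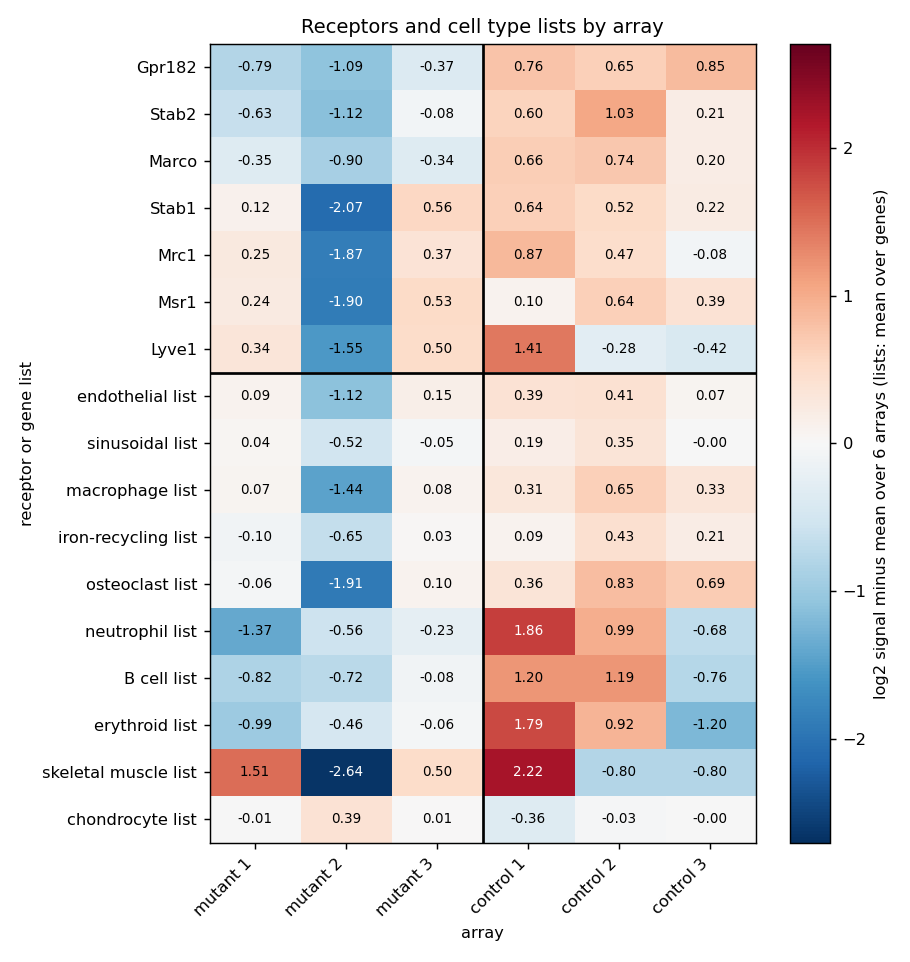
Log2 signal of each receptor minus its mean over the 6 arrays (upper rows) and score of each cell type list (lower rows) on each array (columns), with the value printed in each cell. Mutant 2 is lowest for all 7 receptors, and the muscle row, from -2.64 on mutant 2 to 2.22 on control 1, runs with Lyve1.

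The genes with the most similar pattern over the 6 arrays differed between receptors. They are the 3 with the highest Pearson r among 15657 symbols compared, are given as a description, and share the same 6 libraries. For Gpr182 they were Tlr12 (r 0.981), Mgat4b (0.979) and Ramp1 (0.975), the last a partner protein of the calcitonin receptor-like receptor. For Stab2 they were Ptbp3 (0.990), Rad54l (0.988) and Dusp2 (0.986), and for Marco Ifi47 (0.996), Tmem178 (0.993) and Pde9a (0.991). The matches were Cacnb3, Cd55 and Grap for Stab1 (0.998 to 0.999), Gimap8, Adcy7 and Ccl7 for Mrc1 (0.997 to 0.999) and Cdk5r1, Tmem140 and Cd1d1 for Msr1 (0.997 to 0.999). Over 6 arrays, 1 far lower array such as mutant 2 can by itself give a high r. No difference in closeness between receptors is read from these values.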

How the data were processed

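Total RNA from tibial cartilage of 3 mutant and 3 control mice was labelled and hybridised to 1-colour arrays. Per the labels' protocols the dye was Cy3, while the label field names Cy5. The submitters' processing notes name Agilent Feature Extraction 10.7.1.1, and the file headers give mm9 for the array design. The deposited intensity values are a background-subtracted processed signal and raw spot and background medians, not normalized between arrays. In the authors' deposited value table each value is a ratio on a linear scale, probe over the array's 75th percentile, as inferred from column 75th percentiles of 1, column medians of 0.094 to 0.104 and a correlation of 1 with the processed signal. Its making is not described in the sources used here, and it served as an alternative. Samples were grouped by title.

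Control and outlier spots were dropped, log2 processed signals were centred on each array's 75th percentile, and spots of 1 probe were averaged. Accessions matched a RefSeq gene table (GRCm38.p6) for 27656 of 55681 probes. A probe was kept if well above background on at least 3 of 6 arrays (more than 50% of its spots), and the probe with the highest mean over the 6 arrays stood for a gene, giving 25494 features. Differences, mutant minus control, were fitted by limma 3.58.1 under R 4.3.3 (lmFit, eBayes, two-sided, Benjamini-Hochberg over all features, threshold 0.05), tested on simulated data. The number of arrays limits the precision.

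The receptors and the gene lists were chosen with earlier results of these data known. Named genes are the receptors, Adam10, Col2a1, up to 4 per list with the smallest p, defining markers and the 3 symbols most like each receptor. Alternatives were normexp correction on the spot medians (the files used hold no spot means) with percentile or quantile scaling, the deposited table, other filters, the mean of a gene's probes, array weights, a replicate block, cell type covariates, the first slide row, arrays with Y-linked signal, and each array left out.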

Additional observations from a re-analysis of the deposited data

How the results depend on the processing

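Precision is limited by 3 mutant and 3 control mice on 1 slide, by 1 spot per probe and, for Msr1, 1 mutant array at background. Single receptors were compared with their main value in 125 refits, of which 106 moved it by less than the SD between replicates, 6 moved it by more and 13 reversed it. Gpr182, Stab2 and Marco kept their sign in all 18 refits each. All 6 refits that moved a value by more were of these 3 receptors. Gpr182 was -0.82 and -0.78 with normexp and percentile or quantile scaling. With normexp and quantile scaling Stab2 was -0.72 and Marco -0.74, and with the macrophage score -0.74 and -0.73. The 106 include Stab1 at -0.12 and Mrc1 at -0.11 without mutant 2. Their SD among all 3 mutants was 1.41 and 1.26. The cause of these changes and of those below was not tested, except where fewer arrays or another filter change the count by construction. The normexp offset of 50, added to every intensity before the log, also narrows log2 differences of dim probes by construction. Its share in the normexp values was not tested.

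Reversed differences were, with array weights, Lyve1 at 0.45; with the endothelial score as covariate, Lyve1 at 0.50, Mrc1 at 0.21, Msr1 at 0.25 and Stab1 at 0.18; with the macrophage score, Lyve1 at 0.49, Mrc1 at 0.35, Msr1 at 0.52 and Stab1 at 0.38; on the first slide row, Lyve1 at 0.10; without control 1, Lyve1 at 0.12; and without mutant 2, Lyve1 at 0.18 and Msr1 at 0.00495. With 1 array left out, Lyve1 ranged from -0.84 to 0.18 and the first Msr1 probe from -1.21 to 0.00495. The second Msr1 probe stood at -0.52 without mutant 2. The median of the receptors, -0.92, turned to 0.18 with the endothelial and 0.35 with the macrophage score, was -0.40 with array weights and -0.34 on the first slide row, and ranged from -1.23 to -0.12 when 1 array was left out, with -0.12 reached without mutant 2.

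Features past the adjusted threshold, 0 in all, were 4 with array weights (3 lower, 1 higher). The 187 features at an unadjusted p below 0.05 and 2-fold apart (159 lower, 28 higher) became 68 with normexp and percentile scaling (68 lower, 0 higher), 52 with normexp and quantile scaling (52 lower, 0 higher), 491 without a filter (310 lower, 181 higher), 123 when all 6 arrays had to be above background, 540 with array weights (337 lower, 203 higher), 87 with the endothelial score (41 lower, 46 higher), 108 with the macrophage score (46 lower, 62 higher) and 358 on arrays with Y-linked signal. With 1 array left out they ranged from 86 (without mutant 2) to 398 (without mutant 3), with 105 without control 2 and 355 without control 3. Features whose groups did not overlap, 2281, were 9862 on the first slide row, 9658 on arrays with Y-linked signal and 3646 to 5366 with 1 array left out, as fewer arrays separate more easily. Receptors separated with mutants lower were 3 of 7, beside 957 of all 25494 features. On arrays with Y-linked signal they were 5, beside 4793 features lower. With 1 array left out they were 3 or 4, beside 1383 to 2652 features lower. With the replicate block, 149 features were 2-fold apart at an unadjusted p below 0.05, 0 passed after adjustment and the receptor median stayed at -0.92. Deviations from the group mean correlated at 0.21, 0.06 and -0.16 between same-numbered arrays, and only mutant 1 correlated best with the control of its own number, so the numbers were not taken as pairs.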
